A study of Mus musculus with 2 samples.

Results

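The genes described here are 8 genes of the Schwann lineage and its myelin, *Pmp22*, *Mbp*, *Mag*, *Dhh*, *Cdh19*, *Pou3f1*, *Pou3f2* and *Lgi4*, taken by their symbols out of the 33207 genes counted. All 8 were present in the count matrices, and their unique molecular identifiers (UMIs, 1 per captured transcript) were followed in glia, in neurons and between 2 stages. The cells came from *Egr2Cre/+*; *R26-Tomato* mouse embryos of E11.5 or E12.5, so that all cells compared, at either stage, were heterozygous for the Cre allele of *Egr2*. *Egr2* (also called *Krox20*) is a gene of boundary cap cells (BCCs), the neural crest cells that sit where spinal roots enter and leave the neural tube, so that Cre marks these cells and what they later become with Tomato. Meninges and dorsal root ganglia with their roots were dissected, and Tomato-positive cells of 1 pooled litter per stage were sorted into 1 library per stage. The *Prss56-Cre* library of the study was not analysed here.

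Schwann cell precursors are neural crest cells that travel on nerves, carry the transcription factor *Sox10*, and give rise to Schwann cells, which later wrap axons in myelin. Myelin proteins such as PMP22, MBP and MAG build or hold together that sheath, and their transcripts can be found in the lineage long before any sheath exists. Boundary cap cells are one of the sources of this lineage in the spinal roots and are recognised by *Prss56* and *Egr2*, the latter also a master regulator of myelin genes in mature Schwann cells.

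The E11.5 library kept 833 cells with a median of 11601 UMIs, and the E12.5 library kept 3496 cells with a median of 6140 UMIs. Because each stage is 1 library, the stages were not tested against each other, and the effects of stage, of litter and of library cannot be told apart. The intervals below are exact 95% Poisson intervals for CPM (the UMIs of a gene scaled to a common total per group) and for ratios of CPM, or exact Clopper-Pearson binomial intervals for shares of cells, and they cover counting error only. A value below 3 UMIs in a group was read as not above the floor, and a ratio was counted as 2-fold or more higher or lower only with at least 30 UMIs in both groups together.

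Glia were cells with at least 1 UMI of *Sox10* and none of *Isl1*, and neurons were cells with at least 1 UMI of *Isl1*, a transcription factor of sensory and autonomic neurons, and none of *Sox10*. This gave 413 glia and 203 neurons at E11.5, and 1213 glia and 1337 neurons at E12.5. Cells with both genes numbered 104 and 286, and 57 and 209 cells with neither gene but with at least 3 of 12 mesenchymal and mural genes were set apart, although the labels call the sorted cells boundary cap cells. A panel of 9 glial genes summed to 3302 CPM in glia and 341 CPM in neurons at E11.5, and to 5933 and 450 CPM at E12.5. The 12-gene neuronal panel summed to 283 CPM in glia and 10567 CPM in neurons at E11.5, and to 307 and 12366 CPM at E12.5. Each panel holds a gate gene, which the gates set to 0 in the opposite class. In the glial sums *Sox10* made up 335 CPM at E11.5 and 383 CPM at E12.5. *Isl1* made up 1256 and 1161 CPM of the neuronal sums in neurons. Of 10 listed markers of central nervous system progenitors and oligodendrocytes, the other cells that make myelin, *Olig1*, *Olig2*, *Sox1*, *Nkx2-2* and *Mobp* were at 0 UMIs in the glia of both libraries. The whole list, which also holds genes that peripheral glia carry, summed to 449 and 654 CPM in glia and to 37.8 and 28.6 CPM in neurons. The libraries shared 9 barcodes, 7 of them among kept cells.

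Of the 8 genes, *Pmp22* lies on chromosome 11 (63019718 to 63050600, plus strand, GRCm39) and overlaps no other annotated gene. *Dhh* lies on chromosome 15 (98789033 to 98796439, minus strand) and overlaps *Rhebl1* on the same strand over 3389 bases. It also overlaps the non-coding gene *Gm49442* on the opposite strand over 5208 bases. *Lgi4* lies on chromosome 7 (30758749 to 30770360, plus strand) and overlaps *Fxyd3* on the opposite strand over 2764 bases. *Mag* (chromosome 7, 30598464 to 30614474, minus strand), *Pou3f1* (chromosome 4, 124550600 to 124554448, plus strand) and *Pou3f2* (chromosome 4, 22482780 to 22488366, minus strand) overlap non-coding genes on the opposite strand. *Cdh19* (chromosome 1, 110815039 to 110905349, minus strand) overlaps 2 gene models of unproven status on its own strand. How reads in these overlaps were assigned, and whether strand was used in the counting, is not given in the sources used here.

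RefSeq starts with upstream sequence were at hand for 4 of the 8 genes, *Pmp22*, *Mag*, *Dhh* and *Pou3f2*. The sequences directly upstream of *Dhh* (chr15:98796440-98796671, GRCm39, minus strand, 232 bases) and of the farthest upstream of 4 *Pmp22* starts (chr11:63019558-63019717, GRCm39, plus strand, 160 bases) are shown because these genes gave the largest contrast between glia and neurons at E12.5 and the most UMIs of a myelin gene. Capitals mark the GC box GGGCGG on either strand.
Dhh: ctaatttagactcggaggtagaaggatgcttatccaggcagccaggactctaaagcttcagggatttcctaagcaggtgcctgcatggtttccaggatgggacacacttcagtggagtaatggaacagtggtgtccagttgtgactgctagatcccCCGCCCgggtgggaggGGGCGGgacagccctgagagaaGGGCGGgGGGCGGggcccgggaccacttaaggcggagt
Pmp22: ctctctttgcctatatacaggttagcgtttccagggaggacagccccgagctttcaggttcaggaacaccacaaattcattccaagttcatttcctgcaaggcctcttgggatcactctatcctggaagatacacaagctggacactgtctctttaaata
The *Dhh* sequence held 4 GC boxes, which lie 44 to 94 bases upstream of the RefSeq start, and 59.1% of its bases were G or C. It overlaps the annotated non-coding gene *Gm49442*. The *Pmp22* sequence shown held none of the 4 motifs searched on both strands, while the 250 bases upstream of 2 of the other *Pmp22* starts held 3 GC boxes each. These were the GC box, the Sox motif ACAAAG, the Egr motif GCGTGGGCG and the octamer ATGCAAAT, of which the GC box and the Egr motif share the letters GGGCG, so that their matches can overlap. In the 250 bases upstream of 32851 RefSeq starts, 32.7% held the GC box, 16.5% the Sox motif, 0.536% the Egr motif and 1.60% the octamer. Upstream of *Mag*, 2 of 3 starts held 1 Sox motif, and the *Pou3f2* start held 1 GC box. A match is a description of letters and not a binding site.

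The first comparison asked when the myelin genes were found in glia. *Pmp22*, an integral membrane protein of compact peripheral myelin, was at 22.9 CPM in glia at E11.5 (116 UMIs, interval 18.9 to 27.5) and at 106 CPM at E12.5 (828 UMIs, 98.7 to 113). The level in the E12.5 library was 4.61 times that in the E11.5 library (3.80 to 5.65), and the intervals of the stages did not overlap. In neurons it was at 2.15 CPM from 5 UMIs at E11.5 and at 9.06 CPM from 82 UMIs at E12.5, so that the glial level was 10.7 times the neuronal one at E11.5 (4.44 to 33.5) and 11.7 times at E12.5 (9.29 to 14.8). Between the stages the ratio within neurons was 4.22 (1.74 to 13.3), beside 4.61 within glia. *Pmp22* was highest outside both classes. The mesenchymal or mural cells held 53.6 CPM in the earlier library and 177 CPM in the later one, above the glia of the same library in both cases. At E12.5 the order was mesenchymal or mural cells, glia, cells with both *Sox10* and *Isl1* (47.0 CPM) and neurons, and no neighbouring intervals in that order overlapped.

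*Mbp*, the main cytoplasmic protein that compacts myelin, was at 16.8 CPM in glia at E11.5 (85 UMIs, 13.4 to 20.8) and at 56.2 CPM at E12.5 (440 UMIs, 51.1 to 61.7), a ratio of 3.35 (2.65 to 4.27). Its gene lies on chromosome 18 (82493207 to 82603763, plus strand, GRCm39), where a non-coding gene and a pseudogene overlap it on the opposite strand. Neurons held 13.7 CPM (32 UMIs) at E11.5 and 12.5 CPM (113 UMIs) at E12.5. The glial and neuronal levels therefore lay within counting error of each other at E11.5, with a ratio of 1.22 (0.805 to 1.90), and apart at E12.5, with a ratio of 4.50 (3.65 to 5.58). In the neurons alone the ratio between stages was 0.909 with an interval that covered 1 (0.609 to 1.39).

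*Mag*, an adhesion molecule of the innermost myelin wrap that faces the axon, was close to the detection limit at E11.5, where glia held 7 UMIs (1.38 CPM, 0.556 to 2.85) and neurons held 0. At E12.5 glia held 95 UMIs in 84 cells (12.1 CPM, 9.82 to 14.8) and neurons held 11 UMIs (1.22 CPM). The ratio between the stages in glia was 8.77 with a wide interval (4.10 to 22.4), and that of glia to neurons at E12.5 was 9.98 (5.33 to 20.7). No glial cell held more than 2 UMIs of *Mag*, and 73 of the 84 cells held 1. Its antisense neighbour *Gm44662* moved with it, with 5 UMIs in E11.5 glia and 35 in E12.5 glia.

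**Figure D1:**
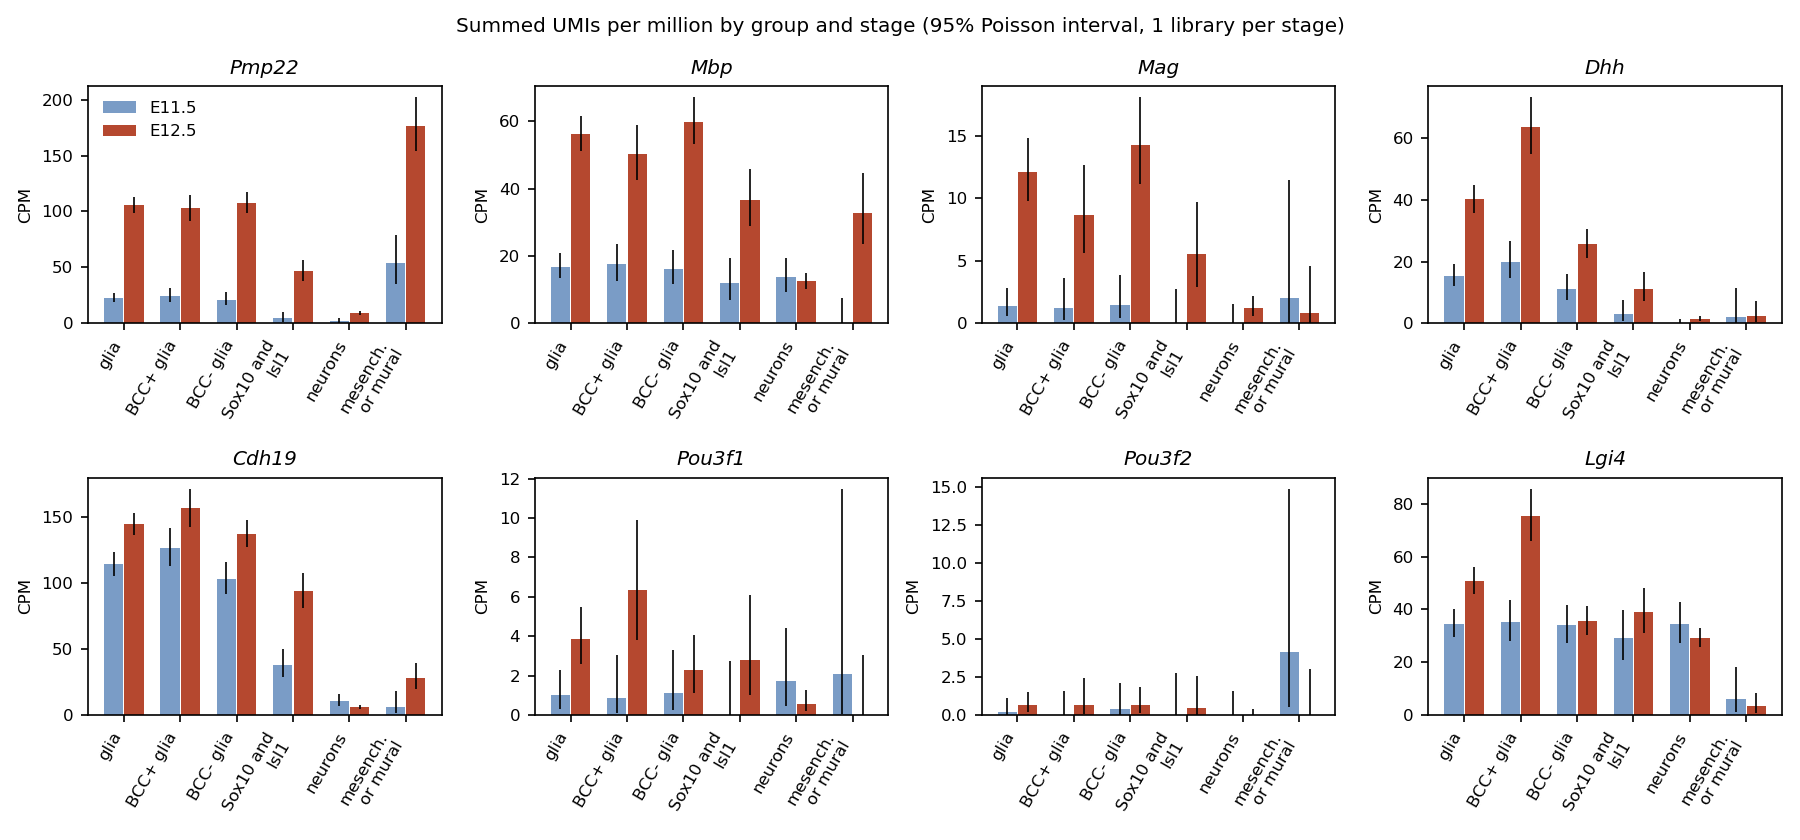
CPM of the 8 genes (vertical axes starting at 0 and scaled for each gene) in 6 groups of cells, where BCC+ and BCC- glia are glia with and without *Prss56* or *Egr2*, at E11.5 (blue) and E12.5 (red), as bars with 95% Poisson intervals from 1 library per stage. *Pmp22* in glia stands at 22.9 and 106 CPM, *Mag* at 1.38 and 12.1 CPM, and *Lgi4* in neurons at 34.4 and 29.3 CPM.

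Among the signals that the lineage sends out, *Dhh* encodes Desert hedgehog, the ligand by which Schwann cells instruct the perineurial sheath around the nerve. It was at 15.4 CPM in glia at E11.5 (78 UMIs, 12.2 to 19.2) and at 40.2 CPM at E12.5 (315 UMIs, 35.9 to 44.9), a ratio of 2.61 (2.03 to 3.39). In neurons there were 0 UMIs in the earlier library and 12 UMIs in the later one (1.33 CPM). Glia were thus at least 11.96-fold higher at E11.5, set against a floor of 3 UMIs over all neurons, and 30.3-fold higher at E12.5 (17.1 to 59.4), the widest of the 7 ratios measured there. *Rhebl1*, which overlaps *Dhh* on the same strand, differed from it in its pattern, with 8.10 and 9.71 CPM in glia and 4.72 and 10.5 CPM in neurons.

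*Lgi4*, a secreted protein that Schwann cells need to sort and myelinate axons, was the gene of the set that least separated glia from neurons. Glia held 34.6 CPM at E11.5 (175 UMIs, 29.6 to 40.1) and 50.8 CPM at E12.5 (398 UMIs, 46.0 to 56.1), while neurons held 34.4 CPM (80 UMIs) and 29.3 CPM (265 UMIs). The ratio of glia to neurons was 1.01 at E11.5 (0.768 to 1.33) and 1.74 at E12.5 (1.48 to 2.04). Mesenchymal or mural cells held 6.19 CPM from 3 UMIs and 3.29 CPM from 4 UMIs, so the neuronal level was not shared by every other cell type. The overlapping gene *Fxyd3* was also present in both classes, at 66.6 and 54.7 CPM in glia and 24.5 and 33.4 CPM in neurons, and its part in the *Lgi4* values was not tested.

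*Cdh19*, a cadherin typical of the Schwann cell precursor, differed less between the stages than the genes above with a 2-fold ratio. It was at 114 CPM in glia at E11.5 (579 UMIs, 105 to 124) and at 145 CPM at E12.5 (1135 UMIs, 137 to 154), a ratio of 1.27 (1.15 to 1.40). Neurons held 10.7 CPM (25 UMIs) and 5.75 CPM (52 UMIs), a ratio between stages of 0.535 (0.326 to 0.900). Glia were 10.7-fold above neurons at E11.5 (7.14 to 16.6) and 25.2-fold at E12.5 (19.1 to 33.99). Cells with both *Sox10* and *Isl1* lay between glia and neurons at each stage, at 38.2 CPM and 93.9 CPM, and their intervals overlapped neither.

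Of the transcription factors, *Pou3f1* (also called Oct6 or SCIP) drives the passage of Schwann cells into myelination, and *Pou3f2* (Brn2) shares that role. *Pou3f1* gave 5 UMIs in glia at E11.5 (0.988 CPM) and 30 UMIs in 22 cells at E12.5 (3.83 CPM, 2.59 to 5.47), with 4 and 5 UMIs in neurons. Its ratio between the stages was 3.88 (1.49 to 12.8), and that of glia to neurons at E12.5 was 6.94 (2.66 to 22.9). *Pou3f2* gave 1 UMI in E11.5 glia and 5 in E12.5 glia, each in a different cell, and none in neurons. These counts do not allow a fold to be given, and a low level of *Pou3f2* would not have been detectable at this depth.

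In counts over the set, 3 of the 5 genes that reached 30 UMIs were 2-fold or more higher in glia than in neurons at E11.5 (*Pmp22*, *Dhh* and *Cdh19*) and none was 2-fold lower, where 17% of all genes with that many UMIs were higher and 10.4% lower. At E12.5, 6 of 7 were higher and none lower, against 20.7% and 12.8% of all genes, and *Lgi4* was the exception. Between the stages, 5 of 7 genes (*Pmp22*, *Mbp*, *Mag*, *Dhh* and *Pou3f1*) were 2-fold or more higher in the E12.5 glia and none lower, where 8.26% of all genes were higher and 1.52% lower. The median ratios of the set were 10.7 and 9.98 for glia over neurons and 3.35 for the stages, beside medians over all genes of 1.09, 1.10 and 1.08. *Mag*, *Pou3f1* and *Pou3f2* did not reach the minimum at E11.5 and *Pou3f2* did not in any comparison. The mesenchymal and mural panel also differed between the stages, at 205 CPM in E11.5 glia and 503 CPM in E12.5 glia. In glia with at most 1 gene of that panel, a subset chosen after the values were seen, the ratios between the stages were 5.98 for *Pmp22*, 7.999 for *Mag*, 3.42 for *Dhh* and 2.17 for *Mbp*, while *Pou3f1* was under 2-fold, at 1.70 from 7 and 3 UMIs.

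**Figure D2:**
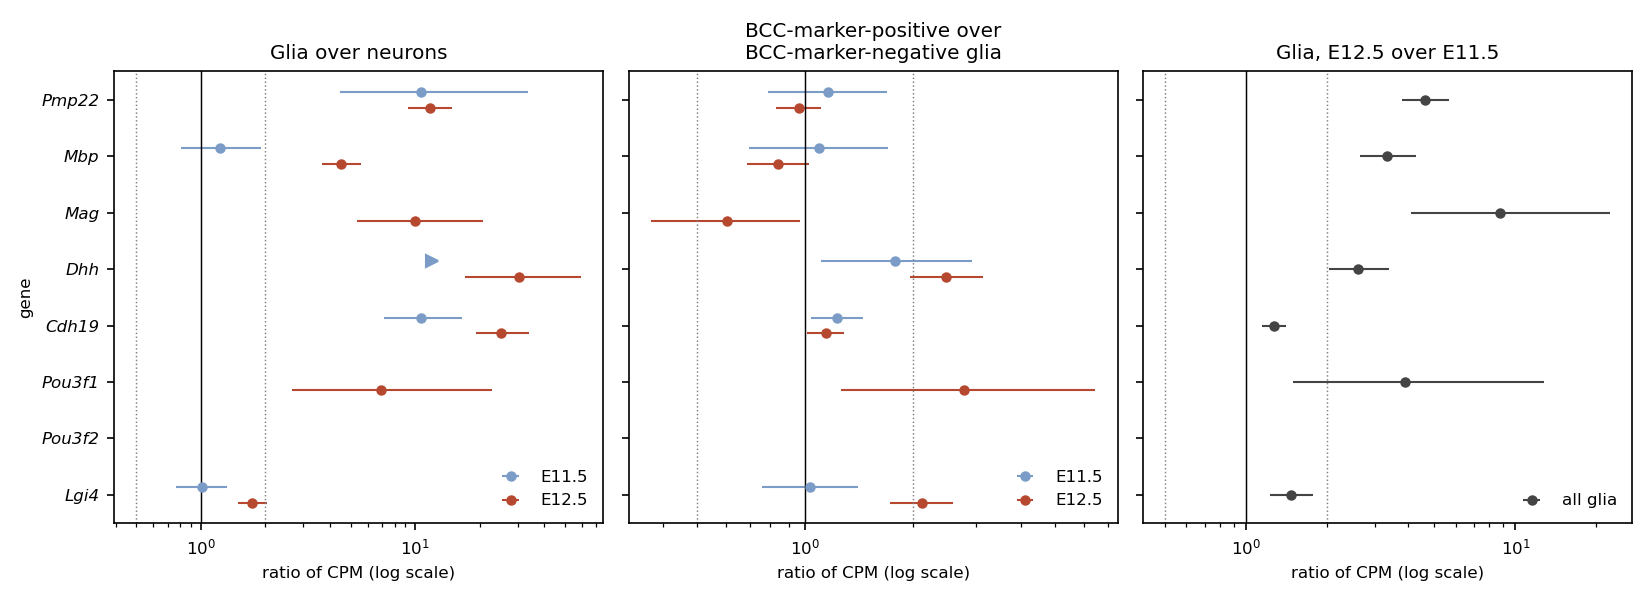
Ratios of CPM on a log axis for each gene, for glia over neurons (left). The centre shows glia with over glia without *Prss56* or *Egr2*, and the right shows glia at E12.5 over E11.5. Intervals are 95% for counting error, a solid line marks 1, dotted lines mark 2-fold and a triangle marks a ratio set against the floor. Values are drawn for genes with at least 30 UMIs in both groups together, and *Dhh* stands highest on the left at E12.5 (30.3) and *Mag* on the right (8.77).

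Because the E12.5 cells were shallower, shares of cells with a UMI were compared after each cell was thinned to 2000 UMIs. *Pmp22* was then found in 4.60% of glia at E11.5 (19 of 413 cells, 2.79 to 7.09) and in 18.6% at E12.5 (218 of 1175 cells, 16.4 to 20.9). For *Mbp* the shares were 4.12% and 9.87%, for *Dhh* 2.66% and 7.91%, and for *Mag* 0.484% and 1.96%. The intervals of the stages did not overlap for *Pmp22*, *Mbp* and *Dhh*, whereas they overlapped for *Mag*, for *Cdh19* (22.3% and 25.2%) and for *Lgi4* (6.30% and 9.28%). *Pou3f1* was found in 0 of 413 glia at E11.5, a count that allows up to 0.726% of cells by the floor of 3 counts (exact upper bound 0.889%), and in 0.426% at E12.5. In neurons the shares were 0.493% and 1.16% for *Pmp22* and 2.96% and 2.25% for *Mbp*. The neuronal share of *Lgi4* was 7.39% at E11.5 and 4.88% at E12.5, at E11.5 no lower than in glia. In the mesenchymal or mural cells, at median depths of 8252 and 5824 UMIs beside 11595 and 6475 UMIs in neurons, it was 1.75% (0.0444 to 9.39) and 0% (up to 1.85), so that it lay below the neurons beyond counting error at E12.5 only. Free RNA in the droplets was not measured. Without thinning, the order of the stages turned for *Cdh19* (63.2% and 53.5%) and *Lgi4* (30.5% and 24.2%) but not for *Pmp22* (19.4% and 39.0%), *Mbp* (14.04% and 21.7%), *Dhh* (14.8% and 19.0%) or *Mag* (1.69% and 6.92%).

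**Figure D3:**
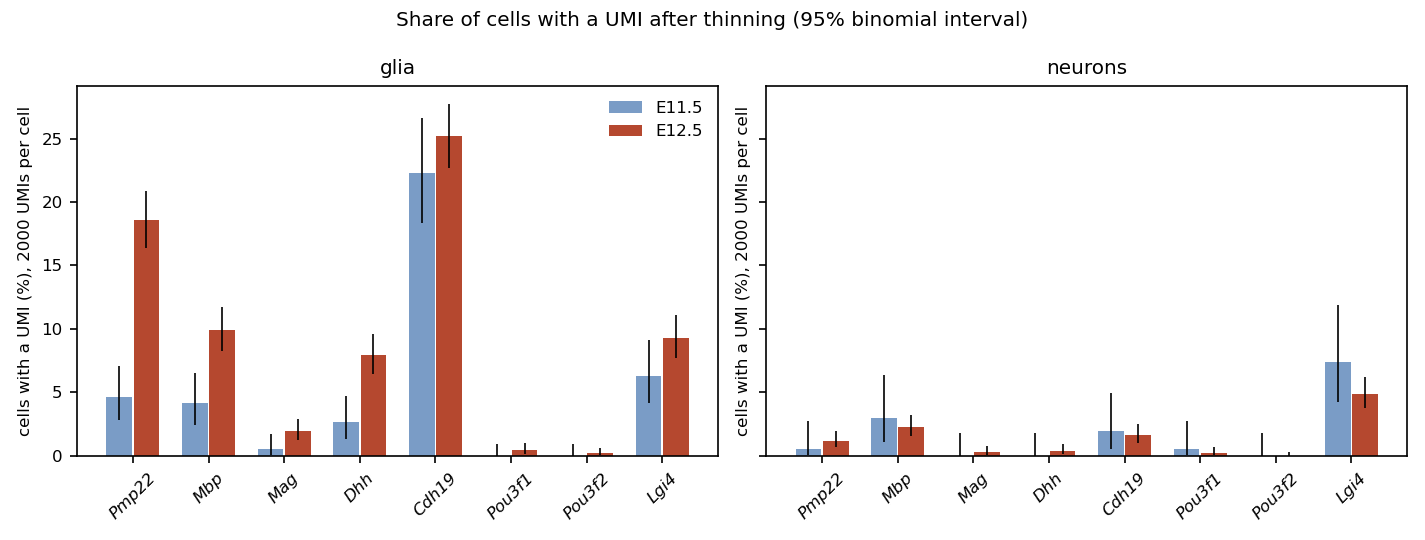
Share of glia (left) and neurons (right) with at least 1 UMI of each gene after thinning to 2000 UMIs per cell, in percent with 95% binomial intervals, at E11.5 (blue) and E12.5 (red). *Pmp22* goes from 4.60% to 18.6% of glia, and *Lgi4* has a UMI in 7.39% and 4.88% of neurons.

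Most glia held few UMIs of any of these genes. At E12.5 the highest glial cell held 16 UMIs of *Mbp*, 12 of *Pmp22*, 7 of *Cdh19* and 5 each of *Dhh* and *Lgi4*. At least 5 UMIs were found in 21 glia for *Pmp22*, 21 for *Cdh19* and 10 for *Mbp*.

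After thinning, 36.6% of glia at E11.5 and 54.0% at E12.5 held a UMI of at least 1 of the 8 genes. At least 2 of them were found together in 3.63% of glia at E11.5 (15 of 413, 2.05 to 5.92) and in 16.0% at E12.5 (188 of 1175, 13.9 to 18.2). At least 3 were found in 1 of the E11.5 glia and in 36 of the E12.5 glia (3.06%). In neurons at least 2 were found in 1.97% of the E11.5 cells and 0.852% of the E12.5 cells. The share of cells with at least 2 of the genes was thus higher at E12.5 in glia and not in neurons. *Pmp22* on its own was also higher in the E12.5 neurons, at 4.22 times the E11.5 level (1.74 to 13.3).

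**Figure D4:**
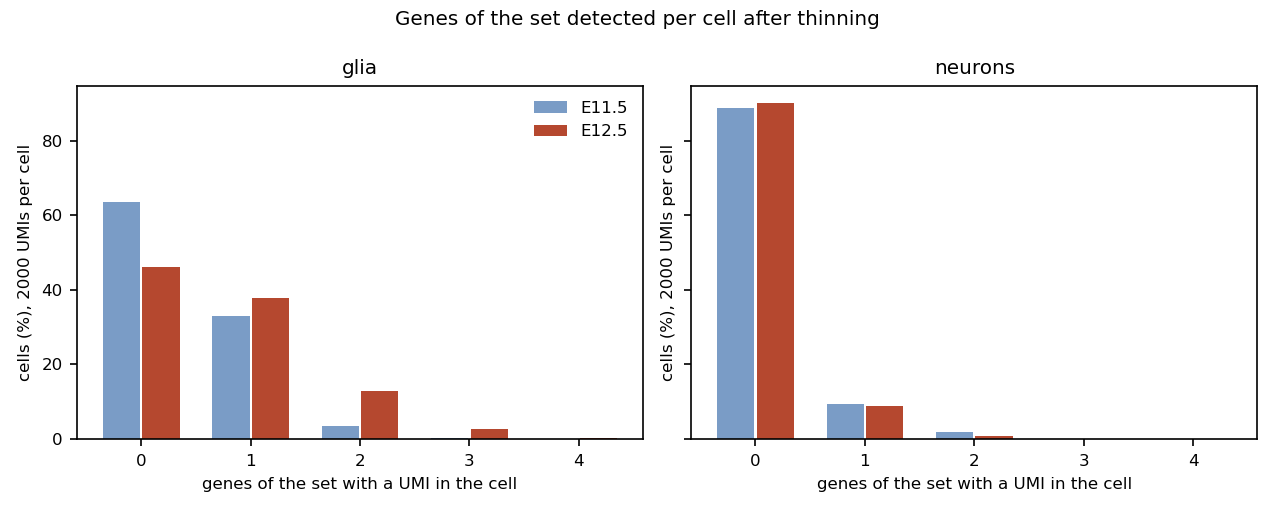
Percent of glia (left) and neurons (right) in which 0, 1, 2, 3 or 4 of the 8 genes had a UMI after thinning to 2000 UMIs per cell, at E11.5 (blue) and E12.5 (red). Glia with none of the genes make up 63.4% at E11.5 and 46.0% at E12.5.

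Some pairs were found in the same glial cells more often than the product of their shares, beyond the binomial interval, and cells of more UMIs hold more of any gene. All pairs of the 8 genes were compared at both stages without correction for their number. A few can therefore lie beyond their interval by counting error alone. *Dhh* and *Lgi4* were found together in 8.72% of unthinned glia at E11.5 (36 cells, product 4.51%) and in 7.50% at E12.5 (91 cells, product 4.60%). *Pmp22* and *Dhh* were found together in 5.08% at E11.5 (21 cells, product 2.86%) and 9.40% at E12.5 (114 cells, product 7.43%), and after thinning in 2.30% at E12.5 (27 of 1175 cells, product 1.47%). *Pmp22* and *Mag* were found together in 45 glia at E12.5 (3.71%, product 2.70%), and of the 22 glia with *Pou3f1*, 10 held *Dhh* and 14 held *Lgi4*. *Dhh* and *Cdh19* were found together in 13.3% of unthinned glia at E11.5 (55 cells, product 9.33%). Among all pairs of the 8 genes at both stages, *Pmp22* and *Dhh* at E12.5 was the only one above its product after thinning. *Dhh* and *Lgi4* (1.11%, product 0.734%) and *Pmp22* and *Mag* (0.511%, product 0.363%) at E12.5 and *Pmp22* and *Dhh* at E11.5 (0.242%, product 0.123%) then lay within counting error of it, and no thinned cell held *Pou3f1* with *Dhh* or *Lgi4*.

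Splits of the E12.5 glia by 1 gene of the set were added after its values had been seen. The 231 glia with *Dhh* had 2.002 times the *Lgi4* of the others (1.61 to 2.47), 1.40 times the *Pmp22* (1.19 to 1.64), 1.58 times the *Prss56* (1.40 to 1.78) and 2.27 times the *Egr2* (1.75 to 2.95). The 84 glia with *Mag* went the other way for *Lgi4* (0.569, 0.344 to 0.891), *Prss56* (0.457, 0.344 to 0.596) and *Egr2* (0.477, 0.235 to 0.869), and were higher in *Pmp22* (1.41, 1.13 to 1.75). *Mbp* in the glia with *Mag* was at 1.02 times its level in the rest (0.709 to 1.42). The glia with *Mag* had a median depth of 7492 UMIs and the others one of 5961.

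The next comparison asked how the genes stood in glia with and without the boundary cap genes. Glia with at least 1 UMI of *Prss56* or *Egr2* (BCC-marker-positive) numbered 174 in the earlier and 465 in the later library, and glia with neither (BCC-marker-negative) numbered 239 and 748. Their median depths were 13596.5 and 11560 UMIs at E11.5, and 5829 and 6191.5 UMIs at E12.5. At E11.5 none of the 5 genes with enough UMIs was 2-fold higher or lower in the BCC-marker-positive glia, where 1.11% of all genes were higher and 1.15% lower. At E12.5, 3 of 7 (*Dhh*, *Lgi4* and *Pou3f1*) were 2-fold or more higher and none lower, beside 1.93% and 1.57% of all genes. With a gate at 2 UMIs 1 of these calls was left. With gates on cells thinned to 2000 UMIs none was left, where *Dhh* was at 1.88 and *Lgi4* at 1.69. *Pou3f1* did not fall below 2-fold with either gate, and left the count because too few of its UMIs remained. The medians of the set were 1.15 and 1.14 in the order of the stages, and that of all genes was 1.01 at both stages.

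*Dhh* stood at 20.1 CPM in BCC-marker-positive and 11.2 CPM in BCC-marker-negative glia at E11.5, a ratio of 1.79 (1.11 to 2.92). At E12.5 it stood at 63.7 and 25.7 CPM, a ratio of 2.48 (1.97 to 3.13). *Lgi4* did not separate the groups at E11.5 (35.1 and 34.1 CPM, 1.03, 0.756 to 1.40) and did at E12.5 (75.3 and 35.6 CPM, 2.11, 1.73 to 2.59). With gates on cells thinned to 2000 UMIs, which left 32 and 185 BCC-marker-positive glia, the stages lay closer together. *Lgi4* was then at a ratio of 1.53 at E11.5 and 1.69 at E12.5. Its ratio between the stages was 2.14 in BCC-marker-positive glia (1.66 to 2.79) and 1.04 in BCC-marker-negative glia (0.806 to 1.36), and the difference between these ratios was not tested. *Pou3f1* gave 19 UMIs (6.33 CPM) in BCC-marker-positive and 11 UMIs (2.28 CPM) in BCC-marker-negative glia at E12.5, a ratio of 2.78 (1.26 to 6.47).

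The structural myelin genes did not follow *Dhh* and *Lgi4*. *Pmp22* was at 103 and 107 CPM in BCC-marker-positive and BCC-marker-negative glia at E12.5 (ratio 0.958, 0.830 to 1.11), and *Mbp* was at 50.3 and 59.8 CPM (0.841, 0.686 to 1.03), although the *Mbp* ratio was 1.33 (0.952 to 1.84) in glia with at most 1 mesenchymal or mural gene. *Mag* was lower with a boundary cap gene, at 8.66 CPM from 26 UMIs against 14.3 CPM from 69 UMIs (0.606, 0.371 to 0.965), an interval that stopped just short of 1. *Cdh19* differed little, at 157 and 138 CPM (1.14, 1.01 to 1.29). Both groups of glia held more of the myelin genes in the E12.5 library, with ratios between the stages of 4.18 and 5.03 for *Pmp22* and 2.87 and 3.72 for *Mbp*.

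Glia with both *Prss56* and *Egr2* (102 at E12.5) held the most *Dhh* and *Lgi4*, at 73.2 CPM (54.9 to 95.8) and 95.3 CPM (74.2 to 121), or 2.85 times (2.03 to 3.96) and 2.68 times (1.99 to 3.56) the glia with neither. The same cells held less *Pmp22*, at 76.0 CPM (ratio 0.707, 0.525 to 0.935), and less *Mbp*, at 37.3 CPM (0.623, 0.404 to 0.926), than the glia with neither. Glia with *Prss56* only (273) held 64.5 CPM of *Dhh* (2.51, 1.92 to 3.28) and 66.3 CPM of *Lgi4* (1.86, 1.45 to 2.38). Glia with *Egr2* only (90) held 50.5 CPM of *Dhh* (1.97, 1.29 to 2.92), 75.8 CPM of *Lgi4* (2.13, 1.51 to 2.95) and the highest *Pmp22* of these groups, at 141 CPM (1.31, 1.03 to 1.64). The intervals of the 3 marker-positive groups overlapped for *Dhh* and for *Lgi4*, so their order was within counting error. Glia with neither gene held 11 UMIs of *Pou3f1*. In the marker-positive groups its UMIs fell in glia with both genes (9 UMIs) and with *Prss56* only (10 UMIs) and none in the 90 glia with *Egr2* only. That 0 gives no fold, since the interval of its ratio to the glia with neither ran from 0 to 3.04. At E11.5 the 45 glia with both genes already held more *Lgi4* (57.2 CPM, 1.68, 1.14 to 2.44) and *Dhh* (27.9 CPM, 2.49, 1.35 to 4.49) than the glia with neither.

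**Figure D5:**
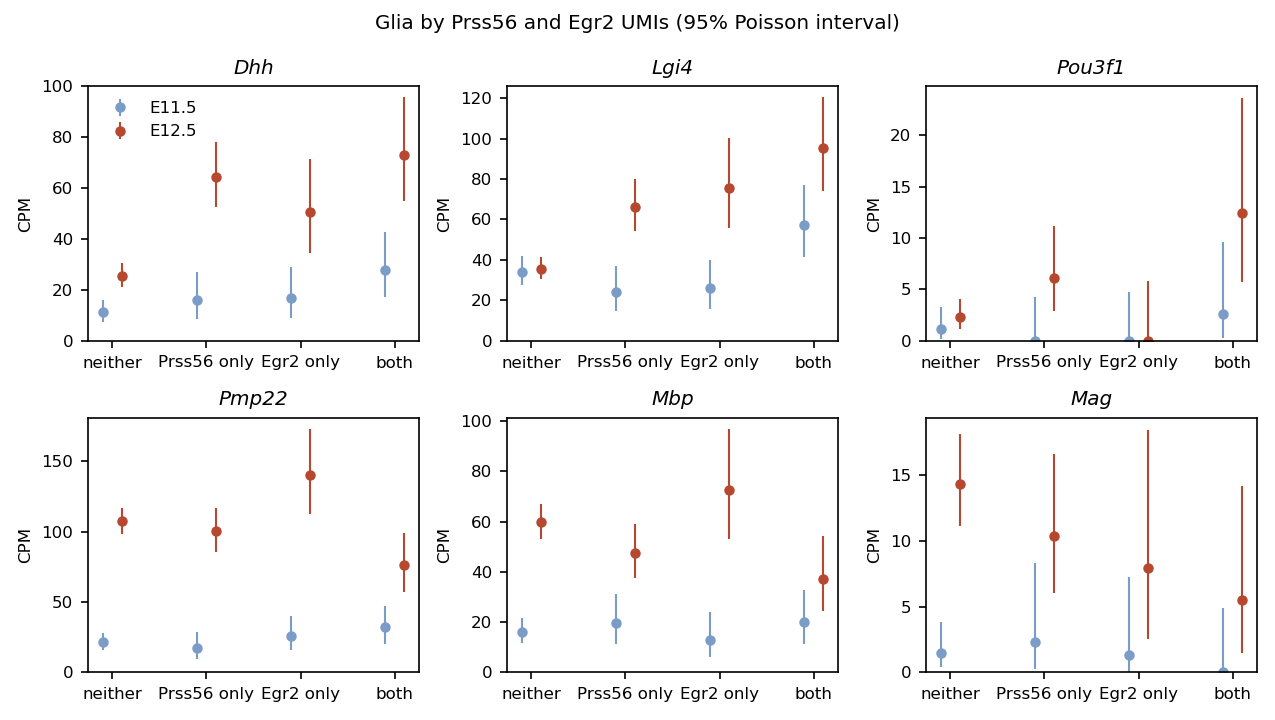
CPM of 6 genes in glia with neither *Prss56* nor *Egr2*, with *Prss56* only, with *Egr2* only and with both, at E11.5 (blue) and E12.5 (red), as points with 95% Poisson intervals on axes that start at 0. At E12.5 *Dhh* and *Lgi4* are lowest in glia with neither (25.7 and 35.6 CPM), while *Mbp* is lowest in glia with both (37.3 CPM).

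The sum of the mesenchymal and mural panel moved with this comparison. It summed to 590 CPM in BCC-marker-positive and 450 CPM in BCC-marker-negative glia at E12.5, and to 231 and 182 CPM at E11.5, beside 5129 and 2967 CPM in the mesenchymal or mural cells. *Twist1* was at 0 in the E12.5 glia, and *Col1a2* and *Col3a1* gave most of the sum. Not every panel gene was higher with a boundary cap gene. Among E12.5 glia with at least 2 panel genes, *Dcn* was at 3.93 CPM in BCC-marker-positive and 55.0 CPM in BCC-marker-negative glia. *Lum* was at 13.5 and 64.5 CPM, *Col1a1* at 57.2 and 74.1 CPM, and *Pdgfra* at 0 and 13 UMIs. Only *Col1a2* (435 and 425 CPM) and *Cspg4* (3.93 and 3.37 CPM) were higher there. At E12.5, 53.8% of BCC-marker-positive and 35.7% of BCC-marker-negative glia held at least 2 genes of the panel. Glia with at least 2 of these genes (517), a split added after the values were seen, held 2.14 times the *Dhh* (1.69 to 2.72), 1.90 times the *Mbp* (1.56 to 2.32), 1.78 times the *Lgi4* (1.45 to 2.19) and 1.54 times the *Pmp22* (1.34 to 1.77) of the rest. Within BCC-marker-positive glia these ratios were 1.24 for *Dhh*, 1.07 for *Mbp* and 1.2004 for *Lgi4*, with intervals that covered 1. Within BCC-marker-negative glia the same genes were at 3.001, 2.74 and 2.06, with intervals above 1. *Pmp22* was at 1.39 (1.09 to 1.78) in the positive and 1.703 (1.43 to 2.03) in the negative glia. The difference between the 2 groups was not tested. In the 517 glia with at least 2, *Dhh* was at 69.0 CPM in BCC-marker-positive and 44.3 CPM in BCC-marker-negative cells, and *Lgi4* at 80.8 and 52.7 CPM, both under 2-fold. In the 696 glia with at most 1, the ratio of BCC-marker-positive to BCC-marker-negative cells was 3.78 for *Dhh* (2.56 to 5.64) and 2.63 for *Lgi4* (1.90 to 3.63), no smaller than in all glia. The 2-fold calls of both genes thus held in 1 of these subsets and not in the other. For *Pou3f1* the ratio in the glia with at most 1 was 0.417 from 1 and 6 UMIs (0.00906 to 3.44), so the higher *Pou3f1* rested on glia with at least 2 panel genes, which held 23 of its 30 UMIs. For *Mbp* the ratio lay on the other side of 1 in the glia with at most 1 panel gene, at 1.33 (0.952 to 1.84), and for *Pmp22* it was 0.981 (0.772 to 1.24).

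In the mesenchymal or mural cells themselves, *Pmp22* lay mostly in cells without a glial signature. At E12.5, 31 of these 209 cells also held at least 3 glial panel genes, a breakdown made after the values were seen, and without them *Pmp22* was at 173 CPM. *Mbp* and *Cdh19* were different, since 39 of 40 *Mbp* UMIs and 32 of 34 *Cdh19* UMIs lay in those 31 cells, and *Mbp* without them was at 0.996 CPM. The *Mbp* bar of that group thus stood for a few cells with glial transcripts.

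Dividing glia were compared with the rest at E12.5, as 663 glia with at least 2 of 6 genes of the G2 and M phases against 348 with none. *Mbp* was at 46.8 CPM in the cycling and 89.0 CPM in the non-cycling glia (ratio 0.527, 0.426 to 0.653), and *Pmp22* at 92.1 and 142 CPM (0.648, 0.552 to 0.762). *Dhh* (0.726, 0.557 to 0.952) and *Cdh19* (0.724, 0.631 to 0.833) were also lower in cycling glia, with *Sox10* itself at 0.765 (0.702 to 0.835), while the median of all genes was 0.969. For *Mag* (1.09, 0.638 to 1.96) and *Lgi4* (0.798, 0.628 to 1.02) the intervals covered 1. Median depth was 7467 UMIs in cycling and 4628 in non-cycling glia, and at E11.5 only 23 glia were non-cycling.

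The genes around the set were described from lists of the same pathways. Of 22 other myelin genes, 13 had 30 UMIs between the stages, and 8 of these were 2-fold or more higher in the E12.5 glia with none lower (median ratio 2.40). *Mal*, a proteolipid of compact myelin (12.4, 7.40 to 22.5), *Cldn11*, a tight junction protein (11.6 from 54 and 3 UMIs, 3.78 to 58.2), and *Gjc3*, a connexin (2.99, 1.96 to 4.72), were among the 8. *Ugt8a*, an enzyme of myelin galactolipids (0.622), and *Mpzl1* (1.06) had the smallest. Of 20 Schwann cell precursor genes, 5 were higher and none lower (median 1.24), and *Foxd3*, a transcription factor of the early neural crest, was at 0.539 (0.432 to 0.673). None of 20 regulators of myelination, a list that does not hold *Pou3f1*, was 2-fold different between the stages (median 1.18, beside the 8.26% higher and 1.52% lower of all genes), the most distant being *Jun* (1.76) and *Sox6* (0.705).

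Against neurons at E12.5, 10 of 14 other myelin genes were 2-fold or more higher in glia and 1, *Nfasc* (0.0595), lower. The Schwann cell precursor list had 15 of 20 higher and 1 lower, *Gap43* (0.257), a growth cone protein that axons also carry, and the regulator list had 12 of 20 higher and none lower. At E11.5 the counts were 4 of 9 higher and 2 lower for other myelin genes, 15 of 20 and 1 for precursor genes, and 10 of 18 and 1 for regulators. Over all genes, 17% were higher and 10.4% lower at E11.5, and 20.7% and 12.8% at E12.5.

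*Dhh* acts through the hedgehog receptors and their targets, of which 11 of 14 listed genes had enough UMIs in glia. In BCC-marker-positive glia at E12.5, 2 of the 11 were 2-fold or more higher and 1 lower, beside 1.93% and 1.57% of all genes. The target transcription factor *Gli1* was among the higher (2.02, 1.27 to 3.25), and the co-receptor *Boc* was the lower one (0.391, 0.220 to 0.662). The receptor and target *Ptch1* was at 1.81 (1.44 to 2.29). Between the stages *Gli1* alone was 2-fold or more higher (2.55, 1.55 to 4.40), and *Ptch1* was at 1.74 (1.40 to 2.19). In glia against neurons at E12.5, 7 of 12 were higher, led by *Gli1* (30.4 from 79 and 3 UMIs), and *Gli2* was lower (0.106). Over all genes, 20.7% were higher and 12.8% lower there, and 8.26% and 1.52% between the stages.

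For *Lgi4*, the related genes are other LGI ligands and the ADAM receptors to which they bind. Between the stages 2 of 4 measured genes were higher in glia, *Lgi1* (4.20, 2.27 to 8.48) and *Adam23* (2.88, 2.34 to 3.58). Against neurons at E12.5, *Lgi1* (22.5) and *Adam23* (6.77) were also higher in glia, and the other 2 of 4 were lower. *Adam22*, the receptor through which LGI4 acts, had 61 UMIs in E12.5 glia and 183 in neurons, a ratio of 0.385 (0.283 to 0.517), and *Adam11* was at 0.191. Of the cadherins listed with *Cdh19*, 1 of 6 was 2-fold higher at E12.5, *Cdh24* (2.53), and *Cdh6* was at 0.711. Among other POU genes, 2 had enough UMIs in glia and neither was 2-fold different between the stages. Over all genes, 8.26% were higher and 1.52% lower between the stages, and 20.7% and 12.8% in glia against neurons at E12.5.

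Boundary cap status also split the other myelin genes. *Gjb1*, the connexin of Schwann cell myelin, was at 4.83 times (2.94 to 8.22) and *Gjc3* at 2.33 times (1.61 to 3.404) their level in BCC-marker-negative glia at E12.5. *Cldn11* went the other way, with 3 UMIs in BCC-marker-positive and 51 in BCC-marker-negative glia (0.0947, 0.0189 to 0.293). In all, 2 of 13 were higher and 1 lower, beside 2 of 20 precursor genes (*Sox8* at 2.20 and *Sox9* at 2.05), 1 of 20 regulators and none of 3 LGI and ADAM genes. Of the regulators it was *Egr3* (2.04, 0.982 to 4.31). Over all genes, 1.93% were higher and 1.57% lower.

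The genes whose levels followed each gene most closely were listed by Pearson's correlation of log2(CPM + 10) over 12 points among 11708 genes. The points were 6 groups in each of the 2 libraries, namely glia with *Prss56*, glia with *Egr2* but not *Prss56*, BCC-marker-negative glia, cells with both *Sox10* and *Isl1*, neurons, and mesenchymal or mural cells. The points share libraries and depend on these gate genes, so the values are a description. For *Pmp22* these were *Cntln* (0.989), *S100a13* (0.982) and *Zdhhc4* (0.975), and for *Dhh* they were *Col20a1* (0.983), *Pebp4* (0.977) and *Dmxl1* (0.976). *Cdh19* was followed by *Igsf11* (0.985) and *Ugdh* (0.984), *Mbp* by *Cnmd* (0.961), *Smim4* (0.947) and *Ncoa2* (0.942), *Mag* by *Paqr6* (0.957), *Rlbp1* (0.954) and *Gm4924* (0.922), and *Lgi4* by *Mamld1* (0.945), *Mrpl23* (0.942) and *9330159F19Rik* (0.934).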

How the data were processed

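Single-cell RNA sequencing libraries were made with the 10x Genomics 3′ V2 kit from Tomato-positive cells, with 1 pooled litter and 1 library for each of E11.5 and E12.5. The deposited values are counts, that is whole UMIs per gene and barcode, which the authors made with Cell Ranger (7.0 in the submitters' notes) on mm39 without normalization. The matrices held 1431 and 3762 barcodes before the filters described next. Whether intronic reads were counted is not given in the sources used here, and it can change levels of genes with long introns. A 3′ count does not grow with transcript length, yet levels were compared across groups and not between genes.

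Cells with more than 10% mitochondrial UMIs or with UMIs below 2000 (E11.5) or 1000 (E12.5), were removed, as were cells scored 0.2 or higher by Scrublet (scanpy 1.11.5), leaving 833 of 1431 and 3496 of 3762 barcodes. This removed 7 and 67 doublets. The libraries held 10287595 and 23460243 UMIs before filtering. UMIs were summed per group and stage and divided by the group's total (CPM). Exact intervals were computed with scipy 1.17.1, and folds needed 30 UMIs in both groups. Against a group at 0 the ratio was set with a floor of 3 UMIs. For shares, cells were thinned to 2000 UMIs, and 165 kept cells of the E12.5 library were too shallow and left out. Ratio code was tested on simulated data. With 1 library per stage no test between groups was run.

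All 8 genes, the gate genes, up to 4 genes per list and comparison with the largest ratios each way, and 3 like genes for each gene of at least 100 UMIs were named. Some genes that this rule names are not reported here. The 8 genes and all lists were chosen with earlier results of these data known. Other lists were used as checks. Myeloid markers summed to 0.988 and 10.5 CPM in glia, endothelial markers to 7.71 and 14.7 CPM, and erythroid markers to 27.5 and 12.5 CPM, while erythroid markers reached 583 CPM in neurons at E12.5. Gene positions are from GENCODE on GRCm39. Upstream sequences and starts are from RefSeq (build GRCm38.p6), matched letter by letter to GRCm39, and 18 (*Dhh*) and 90 (*Pmp22*) bases inside the annotated gene were left out. In all, 18 other settings were run, 3 of them chosen after seeing the data.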

Additional observations from a re-analysis of the deposited data

Results flagged for a closer look

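For *Pmp22* the ratio of BCC-marker-positive to BCC-marker-negative glia was 1.15 at the earlier and 0.958 at the later stage, and for *Mbp* it was 1.09 and 0.841, so that the stages lay on opposite sides of 1. All 4 intervals covered 1, and the difference between the stages was not tested. In glia with at most 1 mesenchymal or mural gene, a subset chosen after seeing the data, the stages lay on 1 side of 1, with 0.675 and 0.981 for *Pmp22* and 1.13 and 1.33 for *Mbp*.

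Kept cells in none of the groups above (56 in the earlier and 451 in the later library, with neither *Sox10* nor *Isl1* and fewer than 3 mesenchymal or mural genes) held some of the 8 genes above the level of the neurons. *Pmp22* was at 24.1 and 81.4 CPM in them and *Cdh19* at 75.3 and 129 CPM. At E12.5 *Mbp* was at 43.4 CPM, *Dhh* at 24.4 CPM and *Mag* at 8.14 CPM. *Pou3f2* was at 21.1 CPM at E11.5, from 7 UMIs in 3 cells, 5 of them in 1 cell. The same cells held *Prss56* at 45.2 and 127 CPM. They were shallower than the glia, with medians of 3076.5 and 4820 UMIs.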

How the results depend on the processing

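No paired analysis was possible because each stage is 1 library, and for the same reason no library could be left out. Of 130 counts of genes past 2-fold in the alternatives, 125 stayed within 1.5 times the reported count. The count higher in glia than in neurons at E11.5 went from 3 to 1 in cells of 4000 to 12000 UMIs, where fewer cells entered. The count higher in BCC-marker-positive glia at E11.5 went from 0 to 1 with gates by marker panels. At E12.5 it went from 3 to 1 with a gate at 2 UMIs. It went to 0 with gates on cells thinned to 2000 UMIs, where *Dhh* was at 1.88 and *Lgi4* at 1.69. *Pou3f1* stayed above 2-fold with both gates but had too few UMIs to be counted. The count lower went from 0 to 1 in glia without *Pou4f1* or *Tlx3* (*Mag* at 0.448). *Pou3f1* in BCC-marker-positive glia at E12.5 turned from 2.78 to 0.417 in glia with at most 1 mesenchymal or mural gene. The depth band and both subsets of glia were chosen after seeing the data, and the causes were not tested. Of 403 ratios, 369 moved by less than their intervals, and 22 lay on the other side of 1. The ratios between stages in glia stayed above 2 in every alternative for *Pmp22* (4.27 to 5.98), *Mbp* (2.17 to 3.61), *Mag* (6.97 to 14.6) and *Dhh* (2.41 to 3.81), and ran from 1.70 to 6.97 for *Pou3f1*. Of 64 shares, 37 moved, with the depth of thinning or with a minimum of 2 UMIs. With 100 UMIs as the minimum, 4.71% of all genes were 2-fold higher and 0.891% lower between the stages.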
